A study of Mus musculus with 12 samples.

Results

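The collagen genes of mouse quadriceps muscle were described after treadmill training, after the drug GW1516, and after both together. A collagen gene was any gene whose symbol has the form Col, number, a, number and that owns a probe set annotated to that symbol alone. Of 12393 genes with such a probe set on the array, 36 were collagens, and they held 58 of the 22690 probe sets. Each gene was summarised by its probe set with the highest mean log2 signal over the 12 arrays. The study used C57Bl/6J mice, for which the sources used here give no age or sex, in a design of 4 groups. Sedentary mice received vehicle (the vehicle group) or GW1516 at 5 mg/kg per day (the GW group), and trained mice received vehicle (the exercise group) or the drug at the same dose (the combination group). Each treatment lasted 4 weeks. GW1516 is an agonist of the nuclear receptor PPARδ. Every group had 3 arrays, and each array was hybridised with RNA pooled from 3 mice, so a group stands for 9 mice and p-values measure the spread between pools.

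Collagens are secreted proteins whose chains wind into a rope-like helix and assemble into fibrils, networks or filaments outside the cell. In muscle, fibrils of types I and III, whose diameter type V helps to set, make the connective tissue sheaths around fibres and bundles. A sheet of type IV collagen forms the core of the basement membrane on each fibre and capillary, and type VI filaments link that sheet to the fibrils. Most of this RNA is made by fibroblasts and vessel cells rather than by the fibres. In a whole muscle sample, fewer cells of a type and less RNA per cell cannot be told apart.

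By class, 9 genes were fibrillar, 6 were type IV (basement membrane) and 21 were of other types. Bacterial control probe sets, which have no target in mouse RNA, gave a median signal of 4.88 and a 95th percentile of 23.5. The genes tested were those in the upper 60% of probe sets by mean signal, above 28.4, and 21 of the 36 collagens passed: 7 fibrillar, 4 type IV and 10 others. The fibrillar genes that passed were Col1a1, Col1a2, Col2a1, Col3a1, Col5a1, Col5a2 and Col5a3, and the type IV genes were Col4a1, Col4a2, Col4a5 and Col4a6. The others were Col6a1, Col6a2, Col6a3, Col7a1, Col14a1, Col15a1, Col16a1, Col18a1, Col20a1 and Col22a1. Col2a1, the cartilage fibril gene, lay just inside the limit with a mean signal of 28.9. Just outside lay Col4a3 at 23.4, Col12a1 at 23.2 and Col9a1 at 22.6, though single arrays were brighter, such as GW array 1 for Col4a3 at 44.7. All 15 genes not tested had geometric mean signals between 4.02 and 23.4, below the 95th percentile of the bacterial controls. Among these were Col11a1 and Col11a2 of cartilage, Col4a3 and Col4a4 of kidney basement membrane, Col9a1, Col9a2 and Col9a3, Col8a1, Col10a1, Col12a1, Col13a1, Col17a1, Col19a1, Col25a1 and Col26a1. A further 8 mouse genes named by RefSeq in the same form were not analysed here.

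The median signal of an array lay between 48.4 and 57.2, and 13575 probe sets were tested. The muscle fibre markers Acta1, Ckm, Myh4, Tnnt3 and Mb were tested on every array and none lay at background. Their summed signal was 75214 to 77450 in vehicle, 90326 to 93789 in exercise, 72772 to 93203 in GW and 80334 to 91035 in the combination. For all 5 markers the exercise arrays lay above the vehicle arrays, while these groups of arrays separated in either direction for 17.4% of all probe sets. The log2 fold changes of the markers ran from 0.17 to 1.07, the highest for Mb (myoglobin), with a lowest limma adjusted p of 0.251. The beta-actin 3′ to 5′ signal ratio, which reads how evenly the RNA was copied along its length, was 0.763 to 0.816 in exercise, 0.838 to 1.10 in vehicle, 0.801 to 0.916 in GW and 0.803 to 0.841 in the combination. The same ratio for Gapdh was 0.896 to 0.94 in exercise and 0.89 to 0.906 in vehicle, which overlapped. It was 0.821 to 0.909 in GW and 0.877 to 0.914 in the combination. The part of the marker and ratio differences in the exercise values below was not tested.

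In none of the comparisons did a collagen gene pass an adjusted p of 0.05 in limma, a moderated linear model fitted over all tested probe sets. Few probe sets of any kind passed: 0.0147% in exercise against vehicle, 0.0958% in GW against vehicle, 0.155% in the combination against vehicle, 0.162% in the combination against exercise and 0 in the combination against GW. The interaction, which asks whether the drug effect differed with training, had 0 as well. The averaged training effect called 0.0147% and the averaged drug effect 0.317%. At an unadjusted limma p under 0.05, 1 of the 21 collagens was higher in exercise than in vehicle, where 5.69% of all probe sets were. In the combination 1 of 21 was lower than in vehicle (4.5% of all probe sets) and 4 of 21 were lower than in exercise (4.59%). The counts in either direction were 0 for GW against vehicle (6.42%), 0 for the combination against GW (5.75%) and 0 for the interaction (6.79%). The averaged training effect had 1 higher gene (4.8%) and the averaged drug effect 3 lower genes (4.04%). A count of 1 in 21 is close to these background shares. The 4 lower genes of the combination against exercise and the 3 of the averaged drug effect were larger shares than the background. These counts share arrays and are not independent of each other.

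The intervals give the range of changes that the arrays leave possible. The 13 collagens with a mean signal over 100, a limit chosen after the values were seen, were Col1a1, Col1a2, Col3a1, Col5a1, Col5a2, Col5a3, Col4a1, Col4a2, Col6a1, Col6a2, Col6a3, Col7a1 and Col15a1. For exercise against vehicle all 13 intervals (95%) lay within a 2-fold change either way, and 7 lay within 1.5-fold. The lowest bound was 0.724-fold and the highest 1.66-fold, both for Col1a1. Col22a1, the next gene below the limit with a mean of 95, had an interval from 0.458-fold to 1.04-fold, which leaves the 2-fold range. For GW against vehicle 12 of 13 lay within 2-fold, with bounds from 0.497-fold for Col1a1 to 1.61-fold for Col5a1. For the combination against vehicle all 13 did, from 0.581-fold for Col5a2 to 1.58-fold for Col1a1.

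**Figure D1:**
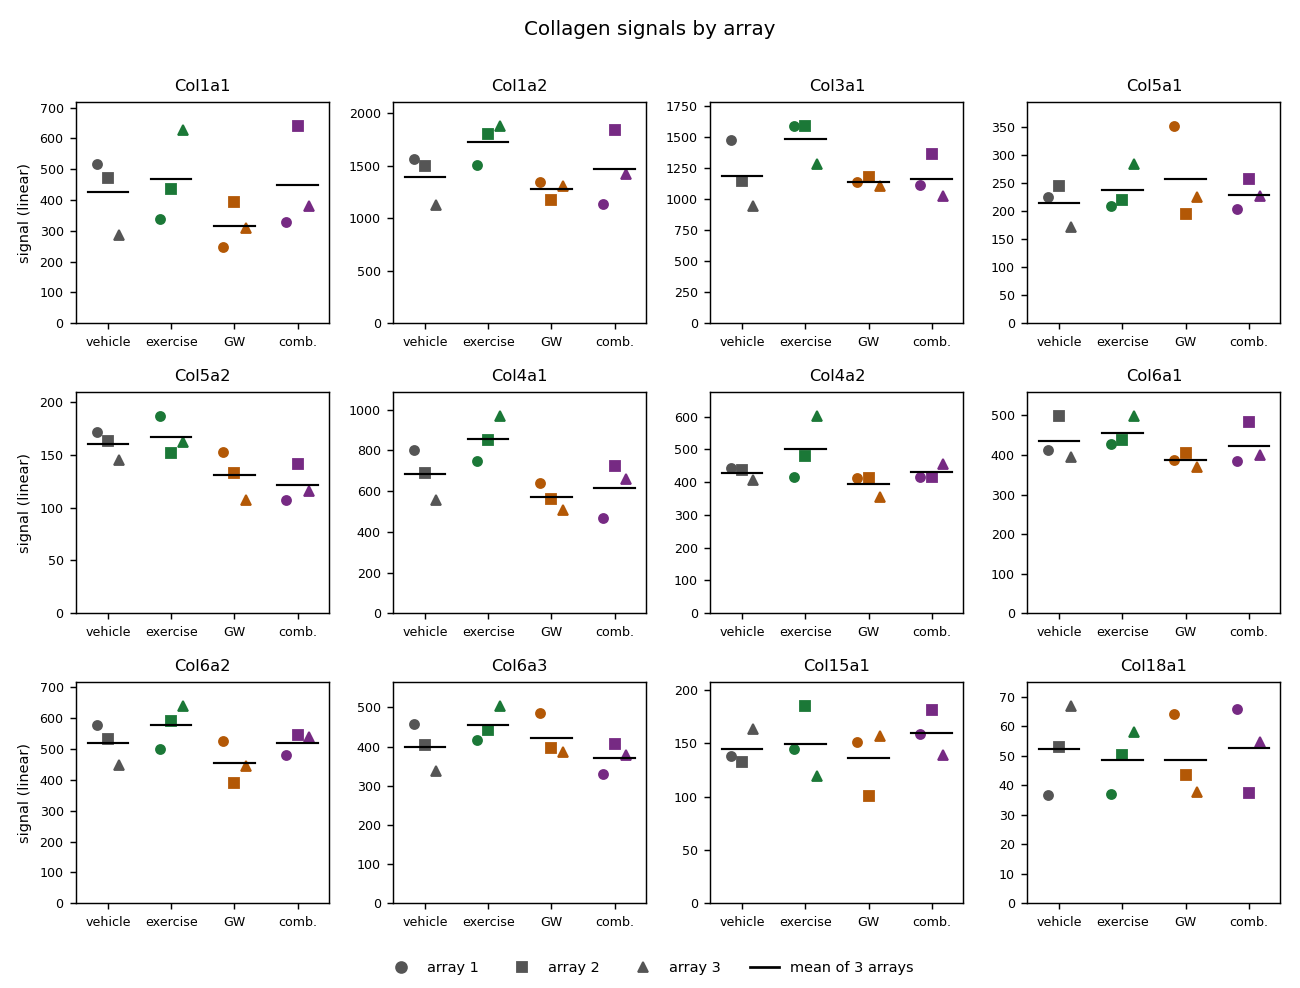
Deposited signal (linear scale, arbitrary units) of 12 collagen genes on each array, by group. Marker shape gives the array number, the line is the mean of 3 arrays, and every panel starts at 0. In most panels the arrays of the groups overlap. For Col4a1 the 3 exercise arrays (749 to 969) lie above the 3 combination arrays (466 to 725).

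Type I collagen, the main fibril of tendon, bone and muscle connective tissue, is built from the products of Col1a1 (Entrez gene 12842) and Col1a2 (Entrez gene 12843). Col1a1 signals were 516, 472 and 287 in vehicle arrays 1 to 3, 338, 436 and 627 in exercise, 246, 392 and 310 in GW, and 327, 641 and 381 in the combination. All 4 groups overlapped. The means were 425 ± 121, 467 ± 147, 316 ± 73.0 and 450 ± 168 (SD, n = 3). Col1a2 signals were 1567, 1493 and 1129 in vehicle, 1503, 1802 and 1880 in exercise, 1349, 1175 and 1306 in GW, and 1134, 1838 and 1422 in the combination. The exercise mean of 1729 ± 199 was the highest and the GW mean of 1277 ± 90.5 the lowest. The exercise and vehicle arrays of Col1a2 overlapped, and the log2 fold change was 0.32 ± 0.16 (SE; 95% interval -0.02 to 0.65, limma adjusted p = 0.506). For Col1a1 the same comparison gave 0.13 ± 0.28 (adjusted p = 0.906).

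Type III collagen, the partner of type I in extensible tissue, is the product of Col3a1 (Entrez gene 12825) alone. Its signals were 1481, 1145 and 948 in vehicle, 1593, 1588 and 1282 in exercise, 1138, 1176 and 1108 in GW, and 1113, 1362 and 1023 in the combination. Exercise arrays 1 and 2 lay above every array of the other groups, while exercise array 3 lay below vehicle array 1 and combination array 2. The mean was 1191 ± 270 in vehicle, 1488 ± 178 in exercise, 1141 ± 34.1 in GW and 1166 ± 176 in the combination (SD, n = 3). Against vehicle the log2 fold change of exercise was 0.34 ± 0.15 (interval 0.02 to 0.65, limma adjusted p = 0.447). The combination lay below exercise by -0.35 ± 0.15 (adjusted p = 0.486), and GW and the combination gave -0.04 and -0.02 against vehicle. The other tested Col3a1 probe set was far dimmer, with signals of 8.48, 27.7 and 38.0 in the combination and 36.3 to 44.5 in exercise. It gave 0.48 ± 0.53 in exercise against vehicle, -0.99 ± 0.53 in the combination against exercise and -0.50 ± 0.53 in the combination against vehicle (adjusted p = 0.793, 0.607 and 0.805).

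The start regions of Col1a2 and Col3a1 are shown because these genes had the larger log2 fold changes in exercise among the type I and III genes and differ in their promoter letters. The sequences are the 120 bases before the transcript start, from RefSeq (build GRCm38.p6), 5′ to 3′ on the strand of the gene, with a CCAAT or TATAAA match in capitals. Col1a2 is read on the forward strand at chr6:4505498-4505617 and Col3a1 on the forward strand at chr1:45311418-45311537.
Col1a2: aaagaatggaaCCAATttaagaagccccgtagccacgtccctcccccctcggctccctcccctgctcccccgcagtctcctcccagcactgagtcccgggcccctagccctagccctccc
Col3a1: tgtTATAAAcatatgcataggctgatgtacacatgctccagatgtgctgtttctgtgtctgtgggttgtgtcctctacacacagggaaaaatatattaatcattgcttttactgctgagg
Over 250 bases before the start, 62.0% of the Col1a2 window was G or C, against 35.2% for Col3a1 and a median of 52.4% over all promoters. On either strand of those 250 bases, CCAAT (the box read by the NF-Y complex) was found in 12 of 30 collagen windows, from 27 genes, and in 33.8% of 32851 mouse windows. TATAAA was found in 5 of the 30 collagen windows, against 12.4% of all windows, and GGGCGG (the core of an Sp1 site) in 16, against 32.7% of all. A match is a description of the letters and not a site of binding.

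Type V collagen sits inside type I fibrils and limits their width. Col5a1 (Entrez gene 12831) signals were 226, 246 and 172 in vehicle, 209, 220 and 285 in exercise, 353, 195 and 226 in GW, and 205, 257 and 228 in the combination. Its groups overlapped, and GW array 1 was the highest. Col5a2 (Entrez gene 12832) signals were 172, 163 and 145 in vehicle, 187, 152 and 162 in exercise, 153, 133 and 107 in GW, and 107, 141 and 116 in the combination. All 3 combination arrays lay below all 3 vehicle arrays, as 8.88% of all probe sets did, and below all 3 exercise arrays. The GW arrays overlapped every other group. The mean was 160 ± 13.9 in vehicle, 167 ± 17.7 in exercise, 131 ± 23.0 in GW and 121 ± 17.8 in the combination (SD, n = 3). The combination differed from vehicle by a log2 fold change of -0.40 ± 0.18 (interval -0.78 to -0.03, limma adjusted p = 0.484). From exercise it differed by -0.47 ± 0.18 (adjusted p = 0.458). GW alone differed from vehicle by -0.30 ± 0.18 (adjusted p = 0.823). Col5a3, the third chain of type V, had means of 112 ± 11.4, 130 ± 28.9, 99.7 ± 22.7 and 106 ± 12.9 in vehicle, exercise, GW and the combination. Col2a1 had wide spreads, such as GW signals of 62.3, 3.51 and 50.4. Its 3 exercise arrays (17.8 to 30.9) lay below its vehicle arrays (31.4 to 60.5), with a log2 fold change of -0.89 ± 0.85. These groups separated in either direction for 17.4% of all probe sets.

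Over the 7 tested fibrillar genes, 6 had a positive log2 fold change in exercise against vehicle, with a median of 0.15. In GW against vehicle 6 were negative, with a median of -0.19. In the combination against vehicle 3 were positive and 4 negative, with a median of -0.02. Over all probe sets tested these medians were 0.01, 0 and 0. None of the 7 fibrillar genes passed the adjusted test in any of these comparisons.

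Type IV collagen of most basement membranes is made from the products of Col4a1 and Col4a2, which lie head to head and are read from a shared start region. Their RefSeq starts are 21 bases apart and placed so that the annotated 5′ ends overlap, with no gap between them. Col4a1 (Entrez gene 12826) signals were 803, 690 and 554 in vehicle, 749, 850 and 969 in exercise, 640, 562 and 509 in GW, and 466, 725 and 659 in the combination. Exercise arrays overlapped vehicle arrays but lay above every GW and every combination array. The mean was 682 ± 125 in vehicle, 856 ± 110 in exercise, 570 ± 66.2 in GW and 617 ± 135 in the combination (SD, n = 3). Exercise against vehicle gave a log2 fold change of 0.34 ± 0.17 (interval -0.03 to 0.70, limma adjusted p = 0.509). The combination against exercise gave -0.49 ± 0.17 (interval -0.85 to -0.13, adjusted p = 0.402), the smallest unadjusted p of any summarised collagen in that comparison.

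Col4a2 (Entrez gene 12827) signals were 442, 438 and 405 in vehicle, 417, 481 and 602 in exercise, 411, 414 and 355 in GW, and 416, 416 and 456 in the combination. Its vehicle, GW and combination arrays lay between 355 and 456, and exercise arrays 2 and 3 lay above them all. The combination arrays of Col4a2 lay just above the GW arrays, at 416 to 456 against 355 to 414, as 5.13% of all probe sets did. The log2 fold changes of exercise, GW and the combination against vehicle were 0.21 ± 0.13, -0.13 ± 0.13 and 0.00 ± 0.13 (adjusted p = 0.597, 0.902 and 0.997). The summary probe sets of the head-to-head pair had positive values in exercise and negative ones in GW, but the other tested Col4a1 probe set gave 0.07 ± 0.16 in GW.

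The second pair, Col4a5 and Col4a6, also lies head to head, on the X chromosome, with the RefSeq starts 1343 bases apart. Both had signals near the limit of the filter. Col4a6 (Entrez gene 94216) signals were 35.4, 52.4 and 23.5 in vehicle and 53.3, 62.3 and 90.9 in exercise, and these groups did not overlap. Exercise against vehicle gave 0.93 ± 0.52 (interval -0.18 to 2.04, limma adjusted p = 0.551), and the arrays of 17.4% of all probe sets separated in either direction. Col4a5 (Entrez gene 12830) signals were 31.9, 55.7 and 52.9 in vehicle and 28.0, 32.2 and 36.1 in exercise, which overlapped. Its log2 fold change had the opposite sign, at -0.51 ± 0.40 (adjusted p = 0.692). Over the 4 tested type IV genes the median was 0.27 in exercise against vehicle, -0.16 in GW against vehicle and -0.36 in the combination against exercise, where all 4 were negative.

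Type VI collagen, whose loss causes inherited muscle weakness, is made from the products of Col6a1, Col6a2 and Col6a3. Col6a1 (Entrez gene 12833) signals were 413, 499 and 395 in vehicle, 427, 438 and 499 in exercise, 388, 405 and 370 in GW, and 384, 483 and 399 in the combination. Col6a2 (Entrez gene 12834) signals were 579, 534 and 448 in vehicle, 501, 590 and 640 in exercise, 527, 389 and 445 in GW, and 480, 546 and 538 in the combination. Col6a3 (Entrez gene 12835) signals were 459, 403 and 337 in vehicle, 417, 443 and 504 in exercise, 486, 397 and 386 in GW, and 331, 407 and 378 in the combination. In the 5 pairwise comparisons the groups overlapped for all 3 genes with 1 exception, the exercise arrays of Col6a3, which lay above its combination arrays. The type VI genes had narrow estimates, with standard errors of 0.13, 0.14 and 0.14. Exercise against vehicle gave log2 fold changes of 0.07, 0.15 and 0.19 (limma adjusted p = 0.895, 0.736 and 0.662). For Col6a1 the interval ran from -0.20 to 0.34.

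Types XV and XVIII lie at the outer face of basement membranes, and the end of type XVIII gives the fragment endostatin. Col15a1 (Entrez gene 12819) signals were 138, 132 and 163 in vehicle, 145, 185 and 119 in exercise, 151, 101 and 157 in GW, and 159, 181 and 139 in the combination. Col18a1 (Entrez gene 12822) signals were 36.7, 53.0 and 66.9 in vehicle, 37.2, 50.4 and 58.2 in exercise, 64.2, 43.5 and 37.6 in GW, and 65.8, 37.4 and 54.6 in the combination. The arrays of both genes overlapped in every pairwise comparison. Their log2 fold changes against vehicle lay between -0.10 and 0.15, and those of a second Col18a1 probe set between -0.39 and -0.21.

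The remaining tested genes were Col7a1, Col22a1, Col14a1, Col16a1 and Col20a1. Col7a1, the anchoring fibril of skin, had means of 176 ± 14.5 in vehicle, 190 ± 32.4 in exercise, 159 ± 20.4 in GW and 145 ± 24.8 in the combination (SD, n = 3). Its combination arrays (118 to 166) lay below its exercise arrays (170 to 227), with a log2 fold change of -0.40 ± 0.18 (interval -0.78 to -0.02, limma adjusted p = 0.533). Col22a1, which marks the junction of muscle and tendon, had means of 120 ± 47.1, 82.4 ± 31.0, 90.0 ± 6.71 and 101 ± 6.59 in the same order. Vehicle array 1, at 173, stood apart there, and exercise against vehicle gave -0.53 ± 0.28 (adjusted p = 0.522). The other tested Col22a1 probe set gave 0.20 ± 0.29 (adjusted p = 0.853), so the sign of this comparison depends on the probe set. The fibril-associated Col14a1 gave 0.37 ± 0.31, Col16a1 gave -0.29 ± 0.45 and Col20a1 gave 0.17 ± 0.71 in that comparison, with adjusted p of 0.709, 0.867 and 0.955. Over the 10 tested genes of the other types, 7 were positive in exercise against vehicle, with a median of 0.08. In GW against vehicle 7 were negative, with a median of -0.13.

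**Figure D2:**
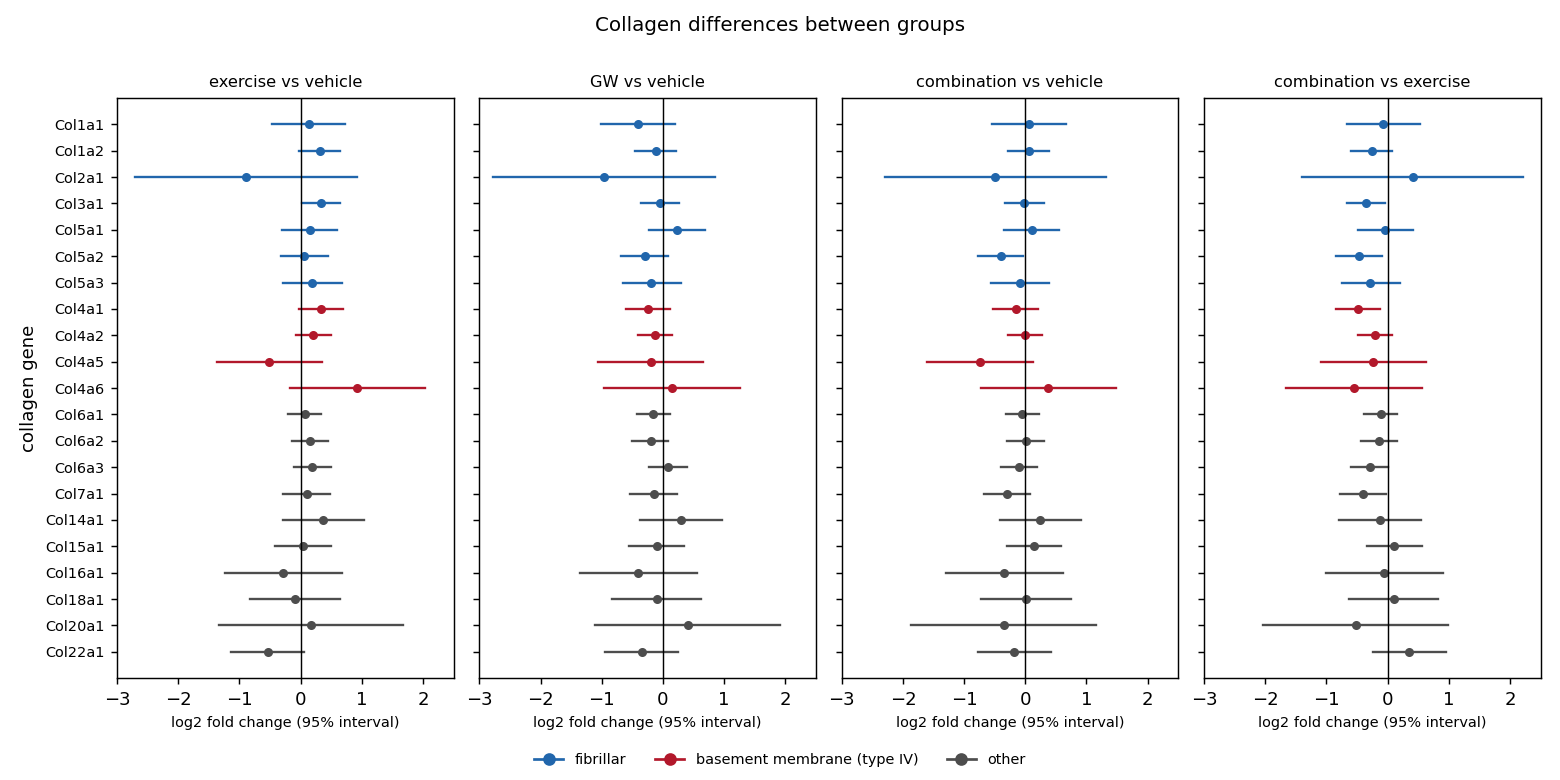
Log2 fold change (points) with its 95% interval from limma (bars) for the 21 tested collagen genes, in 4 comparisons; colour gives the class. Points lie mostly right of 0 in exercise against vehicle and mostly left of 0 in the combination against exercise, and nearly all bars cross 0. The widest bars belong to the dim genes Col2a1, Col20a1 and Col4a6.

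Across the 21 tested collagens, the log2 fold change of exercise against vehicle was positive for 16 (76.2%), beside 51.2% of all probe sets, with a median of 0.15. Of the 13 collagens with a mean signal over 100, a limit chosen after the values were seen, 13 were positive. The next gene below that limit, Col22a1 with a mean of 95, was negative at -0.53 in its summary probe set. With 1 array left out, single values were recomputed only for the 12 main collagens, so not for Col5a3 and Col7a1 of the set over 100. Among the members recomputed, the lowest values were -0.13 for Col1a1, -0.13 for Col15a1 and -0.02 for Col5a2. The genes are measured on the same arrays, so they are not independent of each other and their agreement is 1 observation per array. In GW against vehicle 5 of 21 were positive, beside 49.8% of all, with a median of -0.15. In the combination against vehicle 9 of 21 were positive, beside 49.6%, with a median of -0.05. These 3 comparisons share the vehicle arrays. Without vehicle array 3, when 20 collagens passed the filter, the positive count was 13 for exercise, 3 for GW and 4 for the combination. Without vehicle array 1 it was 16, 6 and 12 of 20.

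The comparison of the combination with exercise asks what the drug added in trained muscle. It shares its exercise arrays with exercise against vehicle, so the signs in both comparisons are not independent of each other. Here 17 of 21 collagens had a negative log2 fold change and 4 a positive one, beside 48.7% of all probe sets positive, with a median of -0.20. Without combination array 1 the positive count was 7 of 21. The class medians were -0.26 for fibrillar, -0.36 for type IV and -0.12 for the other types. The groups of arrays separated for 4 of the 21 genes, Col4a1, Col5a2, Col6a3 and Col7a1, each lower in the combination, as were 8.21% of all probe sets. No collagen separated GW from vehicle, where 11% of all probe sets did. At an unadjusted limma p under 0.05 the 4 lower genes were Col4a1, Col5a2, Col3a1 and Col7a1, and the lowest adjusted p was 0.402.

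For the drug averaged over training, 4 of 21 were positive, beside 49.3% of all probe sets, and the median was -0.19. This average includes the combination against exercise and so the same exercise arrays. The 3 genes lower at an unadjusted limma p under 0.05 were Col5a2 (-0.38), Col4a1 (-0.37) and Col7a1 (-0.27), and the lowest adjusted p was 0.393, for Col4a1. The dimmer Col4a1 probe set gave -0.04 there. For training averaged over drug, 14 of 21 were positive, beside 50.7%. In the combination against GW 14 of 21 were positive as well, beside 50% of all probe sets. The interaction was positive for 8 of 21, beside 48.9%, and no collagen passed it even at an unadjusted p under 0.05.

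**Figure D3:**
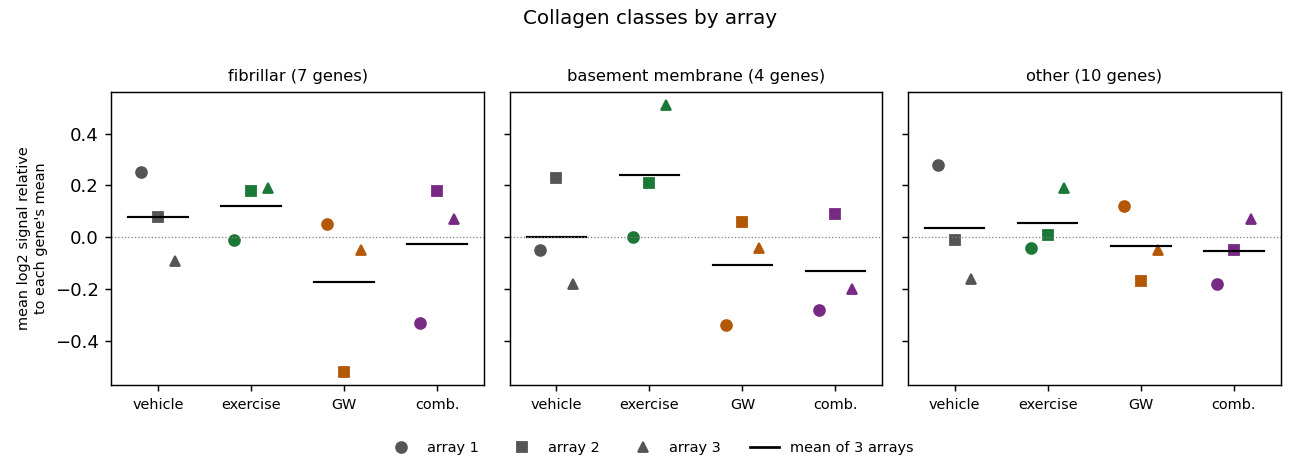
Mean log2 signal of each collagen class on each array, relative to each gene's mean over the 12 arrays; marker shape gives the array number and the line is the mean of 3 arrays. The arrays within a group differ by as much as the groups do: the fibrillar value runs from -0.52 to 0.05 in GW and from -0.33 to 0.18 in the combination.

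Within a group, 1 array was often the highest or the lowest for most collagens. Vehicle array 1 was the highest of its group for 14 of 21 collagens and vehicle array 3 the lowest for 14, while over all probe sets these shares were 35.1% and 33.9%. Exercise array 3 was the highest for 14 (36.1% of all) and exercise array 1 the lowest for 15 (33.2%). Combination array 2 was the highest for 12 (30.9%) and combination array 1 the lowest for 13 (34.5%). GW array 1 was the highest for 13 (37.3%), and no GW array was the lowest for most, with 4, 9 and 8 for arrays 1 to 3. The mean log2 value of the fibrillar class was 0.08 ± 0.17 in vehicle, 0.12 ± 0.11 in exercise, -0.17 ± 0.31 in GW and -0.03 ± 0.27 in the combination (SD, n = 3). For type IV it was 0.00 ± 0.21, 0.24 ± 0.26, -0.11 ± 0.21 and -0.13 ± 0.20. For the other types it was 0.03 ± 0.23, 0.05 ± 0.12, -0.03 ± 0.15 and -0.05 ± 0.13. In each class the arrays of all groups overlapped.

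A gene's probe sets read different stretches of its transcript and can disagree. For 8 genes at least 2 probe sets were tested, and their log2 fold changes had the same sign for 7 genes in exercise against vehicle, 6 in GW against vehicle, 2 in the combination against vehicle and 7 in the combination against exercise. The dimmer Col1a1 probe set gave 246, 192 and 131 in vehicle, 203, 214 and 239 in exercise, 151, 161 and 160 in GW, and 160, 150 and 132 in the combination. All 3 combination arrays lay below the exercise arrays there, as 8.21% of all probe sets did. The log2 fold change was -0.57 ± 0.19 (limma adjusted p = 0.388), against -0.07 ± 0.28 in the brighter probe set. The dimmer Col1a2 probe set gave -0.57 ± 0.22 (adjusted p = 0.459), against -0.26 in the brighter one. For Col4a1 the dimmer probe set gave 384, 342 and 363 in vehicle and 444, 496 and 501 in exercise, with no overlap (17.4% of all probe sets separated in either direction). Its log2 fold change was 0.40 ± 0.16 (adjusted p = 0.403). Its combination against exercise was -0.16 ± 0.16, against -0.49 in the brighter one. None of the 29 tested collagen probe sets passed the adjusted test in any comparison.

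Collagen chains are modified and folded in the endoplasmic reticulum before export, and of the 12 measured genes for that step 10 were tested. None passed in any comparison. Serpinh1, the collagen-specific chaperone HSP47, had the largest difference. Its brighter probe set gave 264, 239 and 187 in vehicle, 331, 405 and 439 in exercise, 296, 236 and 253 in GW, and 303, 233 and 249 in the combination. All 3 exercise arrays lay above every other array. Over all probe sets, 17.4% separated exercise from vehicle in either direction, and 8.21% had all combination arrays below exercise. The log2 fold change of exercise against vehicle was 0.77 ± 0.16 (limma adjusted p = 0.151), and the combination lay below exercise by -0.58 ± 0.16 (adjusted p = 0.27). A second Serpinh1 probe set, of a design whose probes can match other transcripts, gave 239, 173 and 195 in vehicle, 389, 461 and 485 in exercise, 189, 171 and 261 in GW, and 287, 180 and 180 in the combination. There exercise against vehicle was 1.14 ± 0.20 (adjusted p = 0.0874) and the combination against exercise -1.08 ± 0.20 (adjusted p = 0.0556). The interaction of the brighter probe set was -0.77 ± 0.23 (adjusted p = 0.659).

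P4ha1, a catalytic chain of the prolyl hydroxylase that stabilises the helix, gave 368, 381 and 395 in vehicle, 393, 436 and 469 in exercise, 457, 376 and 406 in GW, and 593, 478 and 442 in the combination. The combination arrays lay above the vehicle arrays, by a log2 fold change of 0.39 ± 0.13 (limma adjusted p = 0.321). A second tested P4ha1 probe set gave 0.36 ± 0.19 in exercise, 0.41 ± 0.19 in GW and 0.39 ± 0.19 in the combination against vehicle (adjusted p = 0.526, 0.774 and 0.526). There the exercise and the GW arrays lay above the vehicle arrays, and the combination arrays overlapped them. P4ha2, the sister of P4ha1, gave 0.12 ± 0.17 and the shared chain P4hb -0.08 ± 0.08 in exercise against vehicle. Over all probe sets, 17.4% separated in either direction in exercise against vehicle and 11% in GW against vehicle. The lysyl hydroxylase Plod1 gave 0.19 ± 0.15, and Plod2 lay below the filter. In cross-linking and processing, 11 of 13 measured genes were tested and none passed. The cross-linking enzyme Lox gave 0.20 ± 0.28, the fibril-binding Sparc 0.12 ± 0.16 and the propeptide enhancer Pcolce 0.10 ± 0.20 in exercise against vehicle. Their second tested probe sets gave -0.36 ± 0.37 for Lox, 0.33 ± 0.16 for Sparc and -0.02 ± 0.16 for Pcolce, so the sign turned for Lox and Pcolce. In the combination the second Pcolce probe set lay at -0.49 ± 0.16 against vehicle and -0.47 ± 0.16 against exercise (limma adjusted p = 0.329 and 0.388). Its combination arrays lay below all others, where 8.88% and 8.21% of all probe sets were lower. The brighter Pcolce probe set gave 0.22 ± 0.20 and 0.13 ± 0.20.

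Genes that degrade collagen or hold that degradation back numbered 13, of which 8 were tested, and none passed. Mmp2, a gelatinase that cuts type IV and unwound collagen, had means of 325 ± 38.3 in vehicle, 342 ± 40.4 in exercise, 263 ± 48.4 in GW and 287 ± 93.4 in the combination (SD, n = 3). Its log2 fold changes against vehicle were 0.07 ± 0.20, -0.31 ± 0.20 and -0.22 ± 0.20. A second Mmp2 probe set gave 0.27 ± 0.16, 0.03 ± 0.16 and -0.05 ± 0.16. Timp1, an inhibitor of these enzymes, lay below the filter. Of the collagen receptors 5 were measured and 3 tested, and none passed.

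Among 10 genes of growth factor control, all tested, none passed. Smad3, which carries the TGF-beta signal to collagen genes, gave 87.5, 127 and 155 in vehicle, 278, 218 and 198 in exercise, 253, 187 and 238 in GW, and 189, 207 and 137 in the combination. Exercise and GW arrays all lay above vehicle arrays. Over all probe sets, 17.4% separated in either direction in exercise against vehicle and 11% in GW against vehicle. The log2 fold changes of Smad3 were 0.94 ± 0.22 and 0.91 ± 0.22, with limma adjusted p of 0.219 and 0.35. A second tested Smad3 probe set gave 1.09 ± 0.28 and 0.92 ± 0.28 (adjusted p = 0.247 and 0.557). Its exercise arrays lay above its vehicle arrays, but GW array 2 (179) lay below vehicle array 3 (186). Smad3 is outside the genes set to be named and was chosen after its values were seen. Tgfb1 gave 0.36 ± 0.44 and Ccn2, formerly Ctgf, -0.33 ± 0.28 in exercise against vehicle. All 6 fibril-associated genes measured were tested, Dcn, Bgn, Fmod, Lum, Fn1 and Tnxb, with no call. All 10 basement membrane partners were tested, with no call, and 5 were positive and 5 negative in exercise against vehicle. The largest value of exercise above vehicle among those partners was Hspg2, the heparan sulfate proteoglycan perlecan, at 0.53 ± 0.17 (adjusted p = 0.316), with 0.19 ± 0.19 in its other probe set. The lowest values were those of the laminin chain gene Lama4 at -0.85 ± 0.41 (adjusted p = 0.493) and of Nid2, a nidogen that links laminin to type IV collagen, at -0.80 ± 0.31 (adjusted p = 0.383). These 3 genes too were chosen after their values were seen.

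**Figure D4:**
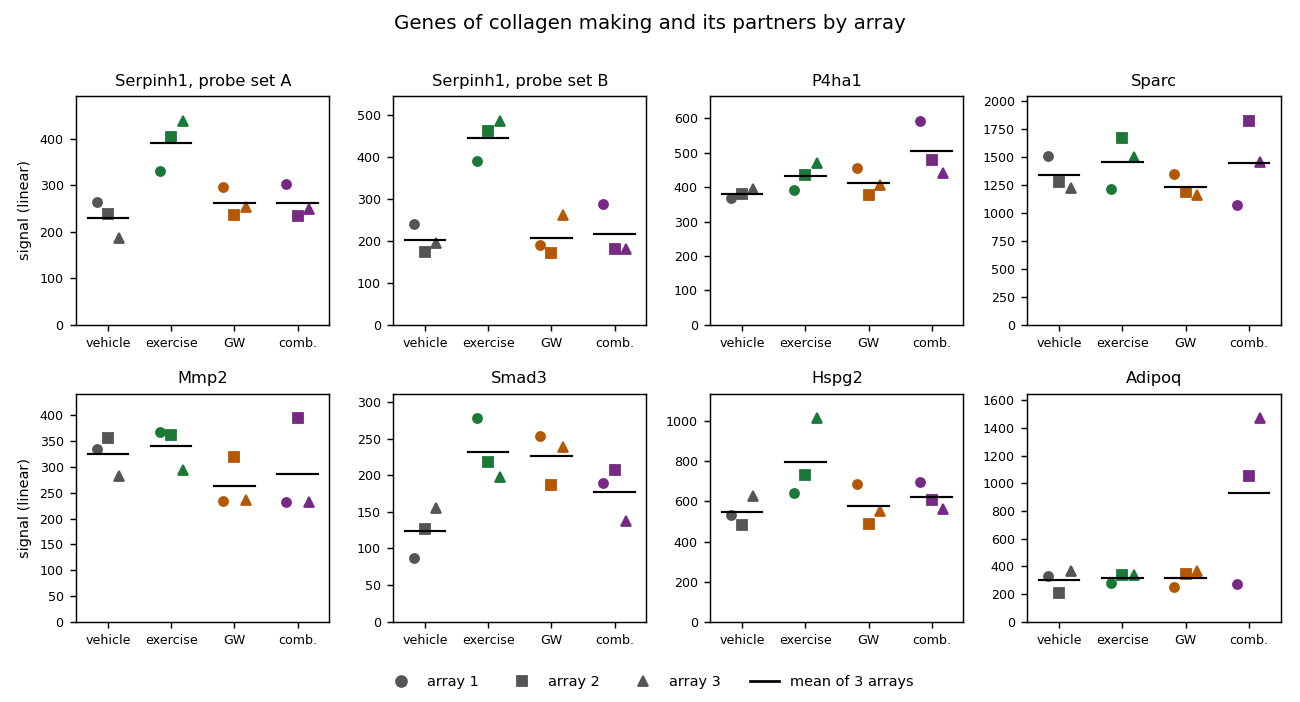
Deposited signal (linear scale, arbitrary units) on each array of 2 Serpinh1 probe sets, P4ha1, Sparc, Mmp2, Smad3, Hspg2 and the fat cell gene Adipoq. Marker shape gives the array number, the line is the mean of 3 arrays, and every panel starts at 0. For both Serpinh1 probe sets (A, the brighter) the exercise arrays (331 to 439 and 389 to 485) lie above all others, and Adipoq is high on combination arrays 2 and 3.

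The samples were also read for the cells that make collagen. Of 8 fibroblast markers, 7 had a probe set and all 7 were tested (Pdgfra, Thy1, Dpt, Clec3b, Mfap5, Pi16 and Lum), and none lay at background. Their summed signal ran from 1133 to 1345 in vehicle, 1172 to 1390 in exercise, 1043 to 1415 in GW and 1011 to 1360 in the combination. These ranges overlapped. All 5 macrophage markers with a probe set were tested. Their sums were 440 to 647 in vehicle, 562 to 724 in exercise, 478 to 703 in GW and 368 to 646 in the combination. All 5 were positive in exercise against vehicle (median log2 fold change 0.31) and negative in the combination against exercise (-0.28), with no call. All 5 were also positive in GW against vehicle (median 0.25), where most collagens were negative. In the combination against vehicle 3 were positive and 2 negative (median 0.25). In the combination against GW 1 was positive and 4 negative (median -0.2). Of 6 endothelial markers all were tested, with sums of 683 to 808, 692 to 889, 597 to 777 and 667 to 869 in the same order. Of 7 tendon markers 6 had a probe set and 2 were tested, and 3 had means below the bacterial 95th percentile. Their sums were 417 to 724, 332 to 587, 449 to 548 and 333 to 722. None of the 3 measured cartilage and bone markers, Acan, Sox9 and Ibsp, had a mean above that percentile. Of 7 fat cell markers 5 had a probe set, and their sum ran from 1736 to 7069 in the combination, against 1764 to 2547 in the other groups. The signal of Adipoq, which encodes the fat cell hormone adiponectin, was 270, 1049 and 1471 on the combination arrays and 210 to 365 on all others. Combination array 1 was the lowest of its group for most collagens. Of 5 Schwann cell markers 3 had a probe set and 2 were tested. In exercise against vehicle 1 tested marker was positive and 1 negative. The sums of the 3 were 124 to 170 in vehicle, 173 to 213 in exercise, 127 to 136 in GW and 129 to 186 in the combination. The part of fat, tendon, vessel, macrophage, Schwann cell or fibre content in the collagen values was not tested.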

How the data were processed

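The deposited table holds 1 linear signal intensity per probe set and array. The authors used MAS5, per the submitters' processing notes, and its version and settings are not given in the sources used here. The columns were matched to samples by title, and log2 was taken with no further scaling. Control probe sets (64) were dropped, which left 22626. Of these, 13575 lay in the upper 60% by mean and were tested in R 4.3.3 with limma 3.58.1. The model had the 4 groups, 12 arrays, 8 residual degrees of freedom and a variance prior that follows intensity. It gave 8 contrasts, two-sided, with Benjamini-Hochberg adjustment over all probe sets tested and a threshold of 0.05, and was tested on simulated data. Signals depend on probe design, so levels were not compared between genes.

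Gene symbols came from GEO's platform annotation (20393 probe sets had 1 symbol, 691 several and 1606 none), and 36 of 36 collagen identifiers matched RefSeq. The members, classes and companion lists were chosen with earlier results of these data known. Every collagen was accounted for, 12 main ones with values on each array, and from the companion lists Serpinh1, P4ha1, P4ha2, P4hb, Plod1, Plod2, Lox, Sparc, Pcolce, Mmp2, Timp1, Tgfb1 and Ctgf always. Smad3, Hspg2, Lama4, Nid2, Adipoq and the set with a mean signal over 100 were chosen after their values were seen. No p was computed over a list. The number of arrays, 3 a group, limits the precision. Alternatives were other normalizations, filters, priors, weights, a pseudocount of 10.5, the mean of a gene's probe sets, a replicate block and leaving out each array.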

Additional observations from a re-analysis of the deposited data

How the results depend on the processing

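The number of collagens passing the adjusted test was 0 in every one of 181 recomputed counts, over 22 alternatives (23 for the pairwise comparisons), and the lowest adjusted p of a collagen in any of them was 0.179, for Col3a1 in exercise against vehicle with array weights and for Col4a1 in the drug averaged over training without vehicle array 3. Of 2164 recomputed values of single main collagens, 96 had the opposite sign to the main value, and none passed in either direction. Of 543 class medians, 26 had the opposite sign, and 4 moved by more than the spread between pools. With no filter, the other collagens had a median log2 fold change of 0.2 in GW against vehicle (-0.13 with the filter) and -0.32 in the interaction (0.05 with it), and type IV had -0.47 in the interaction (-0.16 with it). The unfiltered set adds the 15 collagens at background. For type IV in the combination against GW the median was 0.11, and leaving out 1 array gave -0.13 (without GW array 1) to 0.22 (without combination array 1). In the combination against vehicle the fibrillar median of -0.02 changed sign in 8 alternatives and ran from -0.16 to 0.15. The fibrillar and type IV medians stayed positive in exercise against vehicle (0.05 to 0.28 and 0.15 to 0.38) and negative in the combination against exercise (-0.36 to -0.07 and -0.51 to -0.24). Quantile and cyclic loess normalization moved the median of all probe sets by at most 0.03. Positive counts were recomputed in a check added after the data were seen. With each array left out in turn they ran from 13 to 16 in exercise against vehicle, 3 to 6 in GW against vehicle and 3 to 7 in the combination against exercise. For the drug averaged over training, with 4 positive, the count was 2 without combination array 2 and 6 without GW array 2.

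The number of all probe sets called was less stable than the collagen count of 0. Without combination array 1 it was 20 in exercise against vehicle (2 with all arrays), 52 in the combination against vehicle (21), 83 in the combination against exercise (22), 35 in the combination against GW (0), 9 in the interaction (0), 23 for training (2) and 74 for the drug (43). The lowest counts with 1 array left out were 0, 9, 8, 0, 0, 0 and 20 in the same order. Array weights gave 20, 94 and 39 in the first 3 of these and 20 in GW against vehicle (13). With no intensity trend the counts were 0, 7 and 4, and 7 in GW against vehicle. With only the groups compared they were 33, 17 and 40, and 7. Quantile and cyclic loess normalization both gave 0 in exercise against vehicle and 0 for training. The cause was not tested.

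Array numbers recur in the labels of each group. Same-numbered arrays had correlations of deviations between -0.05 and 0.10 after rounding, with 1 of 18 just over 0.1. Arrays of different number had -0.08 to 0.06, and 8 of 12 arrays correlated best with their own number. The labels tie the numbers to no shared batch, and only 1 of 18 same-numbered pairs was over 0.1, so the arrays were not treated as pairs. A weak link between them is not shown to be absent. With a replicate block 0 collagens passed in any comparison, and the probe sets called went from 21 to 18 in the combination against vehicle and from 22 to 26 in the combination against exercise. The number of arrays limits these comparisons, and the standard errors in exercise against vehicle were largest for Col2a1 (0.85), Col20a1 (0.71) and Col4a6 (0.52).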
